A study of Mus musculus with 9 samples.

Results

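T cell receptor proximal signalling genes encode the machinery that carries a signal from the antigen receptor of a T cell into the cell, together with the proteins that tune or restrain it. A set of 36 such genes was examined in mouse CD4+ T cells. They were taken by symbol from a list ordered by role: CD3 chains, tyrosine kinases, adaptors, enzymes and exchange factors, surface modulators, phosphatases and other inhibitors. All 36 were found among the 25759 gene rows of the table, and all of them passed the filter on low values. They lie on 15 chromosomes.

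RNA was sequenced in 9 libraries of 3 groups. Activated BMPR_KO cells came from mice with the genotype label BMPR1a/CD4cre, a line whose Cre recombinase, driven by the Cd4 promoter from the thymus on, targets Bmpr1a, a receptor for bone morphogenetic proteins (3 libraries). Activated WT cells (3 libraries) and naive WT cells (3 libraries) came from wild-type mice. For both activated groups, lymph node and spleen cells were cultured for 3 days with ConA, a T cell mitogen, at 2 ug/ml and with LPS at 10 ng/ml, and CD4+CD44+CD62L-Foxp3GFP- cells were sorted afterwards. Naive cells were sorted straight from the same organs as CD4+CD44-CD62+Foxp3GFP- and had no treatment. All mice were C57BL/6, carried a Foxp3GFP reporter transgene and were 8 to 12 weeks old. Culture, ConA, LPS, the time in culture and the sort gate changed together between naive and activated cells, and their effects cannot be told apart. The labels do not say whether libraries of a group came from separate mice or cultures, so p-values measure the spread between libraries, which may be technical.

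The T cell receptor has no enzyme activity of its own. Its CD3 chains carry tyrosine motifs that LCK phosphorylates, ZAP70 docks on these motifs and phosphorylates the scaffold LAT, and adaptors then gather phospholipase C, Ras exchange factors and cytoskeletal regulators at LAT. Phosphatases, the kinase CSK, diacylglycerol kinases and several surface proteins set how strong a stimulus is needed and how long the signal lasts.

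Levels are FPKM, the fragments assigned to a transcript scaled by its length and by the size of the library, so they can be compared between genes. Differences are given on the scale log2(FPKM + 1), with activated BMPR_KO or activated WT over the group named after it, a scale that shrinks differences of weakly expressed genes. A gene was called when its limma p, after Benjamini-Hochberg adjustment over all 15126 genes tested, was under 0.05. The summed FPKM of the 36 genes was 5714, 5202 and 5185 in activated BMPR_KO, 5807, 5768 and 6118 in activated WT, and 5808, 5583 and 5753 in naive WT libraries. All 3 BMPR_KO sums were below the activated WT sums, and naive WT overlapped with both activated groups. In bulk RNA, fewer cells of a type and less RNA per cell cannot be told apart. Between the 3 libraries of a group, the median coefficient of variation of the 36 genes was 7.12% in activated BMPR_KO, 6.31% in activated WT and 7.42% in naive WT cells.

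Markers of other cells were present, and their part in the results below was not tested. The 6 T cell markers summed to between 2461 and 2869 FPKM in activated BMPR_KO, 2480 to 2889 in activated WT and 2508 to 2831 in naive WT libraries. Single markers of this list did differ. Bcl11b was at 24.7 to 30.6 FPKM in activated and 55.7 to 72.8 FPKM in naive libraries, and Cd28 at 113.6 to 156 FPKM and 64.65 to 71.5 FPKM. The 2 CD8 genes summed to 219.6 to 279 FPKM in activated BMPR_KO and 147 to 230.4 in activated WT libraries, against 9.48 to 41.4 in naive WT libraries. The 7 myeloid markers summed to 3.65 to 6.14 FPKM in activated BMPR_KO, 4.39 to 6.12 in activated WT and 70.7 to 810.1 in naive WT libraries, with naive library 2 highest. For the 5 erythroid markers the sums were 0.966 to 1.72, 0.816 to 1.02 and 63.5 to 84.15 FPKM in the same order of groups, and for the 6 B cell markers 119.9 to 182.4, 128.5 to 163.9 and 3.08 to 175.1 FPKM. The 6 natural killer markers summed to 5.04 to 8.43, 2.67 to 5.72 and 11.9 to 49.2 FPKM, the 4 dendritic markers to 1.38 to 1.905, 1.59 to 1.89 and 1.02 to 5.9 FPKM, and the 2 regulatory T cell markers to 8.12 to 10.8, 4.18 to 5.26 and 4.325 to 5.34 FPKM. Most of the natural killer sum of naive libraries was Tyrobp (6.23, 41.2 and 20.1 FPKM). Eomes was at 3.17, 2.98 and 3.455 FPKM there and at 5.15, 3.115 and 5.34 FPKM in activated BMPR_KO libraries. Foxp3 was at 2.21 to 5.89, 0.867 to 1.02 and 2.43 to 2.79 FPKM in the same order of groups, and Ikzf4 at 4.88 to 6.15, 3.16 to 4.39 and 1.79 to 2.55 FPKM. No marker was at 0 in all 3 libraries of a group. Bmpr1a itself was at 0.957, 1.93 and 1.199 FPKM in activated BMPR_KO and at 2.16, 2.92 and 1.40 FPKM in activated WT libraries. These groups overlapped, and limma gave its log2 difference of -0.41 an adjusted p of 0.261. In naive WT libraries Bmpr1a was lower than in either activated group, at 0.460, 0.311 and 0.336 FPKM. A value per gene does not show which part of the gene was read, so it cannot tell whether a part was deleted.

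**Figure D1:**
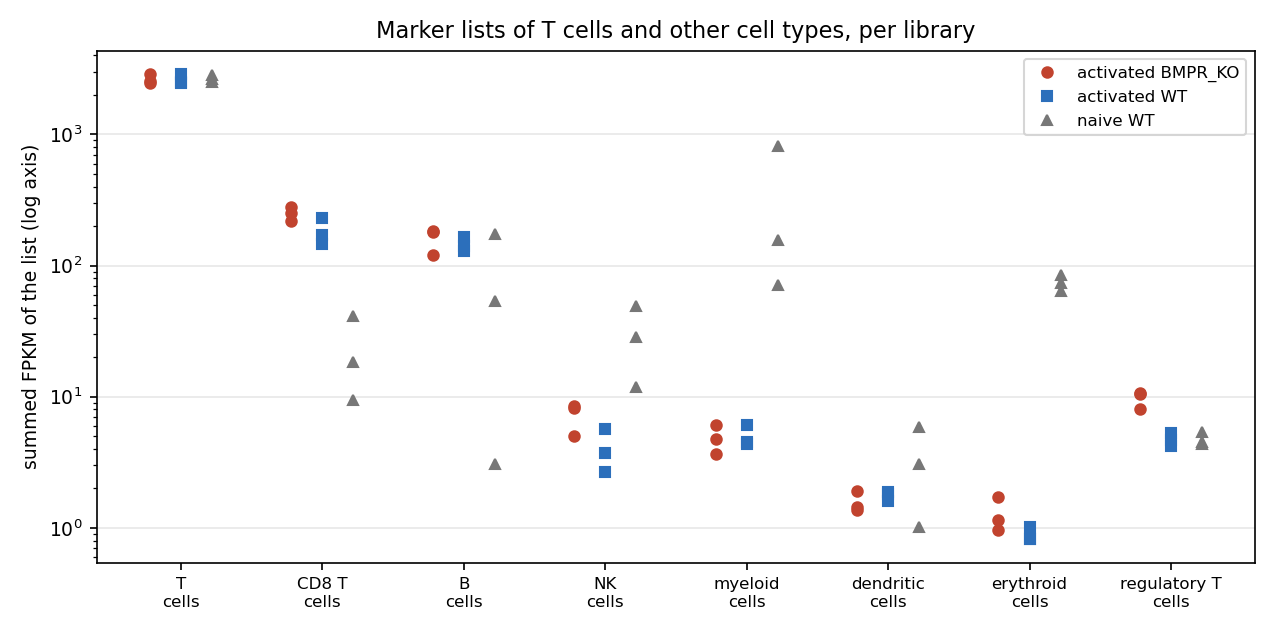
Summed FPKM of each marker list in each of the 9 libraries, on a log axis, with a point per library and a colour per group. T cell marker sums, though not each single marker, stand between 2461 and 2889 FPKM in all libraries. Myeloid and erythroid sums are higher in the 3 naive libraries, and CD8 sums are higher in the 6 activated ones.

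Activated WT cells were first compared with naive WT cells, which asks how the resting signalling machinery differs from that of cells 3 days after mitogen. Of the 36 genes, 9 rose and 12 fell, and 15 did not pass the test. That is 58.3% called, against 52% of all genes tested, of which 26.2% rose and 25.8% fell. On the log2(FPKM + 1) scale, Sh2d2a and Ptpn22 were over 2-fold higher, and Tespa1 and Pag1 over 2-fold lower. In mean FPKM without the pseudocount, the called gene Sos1 was also over 2-fold lower, at 0.486 times its naive WT level. Among all genes tested, 8.76% were called at least 2-fold higher and 4.13% at least 2-fold lower. The median log2 difference of the 36 genes was -0.03, beside -0.01 over all genes tested, and their range was -2.41 to 1.46. Leaving out 1 library put this median at -0.0679 (naive library 2), -0.0132 (activated WT library 1), 0.00379 (activated WT library 2) or -0.1 (activated WT library 3), and within -0.0426 to -0.0242 otherwise. In 22 of the 36 (61.1%) the groups had no overlapping libraries, beside 59.4% of all genes tested. Under quantile normalization 8 rose and 16 fell, with a median of -0.147, beside -0.0776 over all genes tested. That setting called 8095 of all 15126 genes tested. The gene calls held under all 17 other settings for 17 of the 21 called genes, leaving out each library in turn included.

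**Figure D2:**
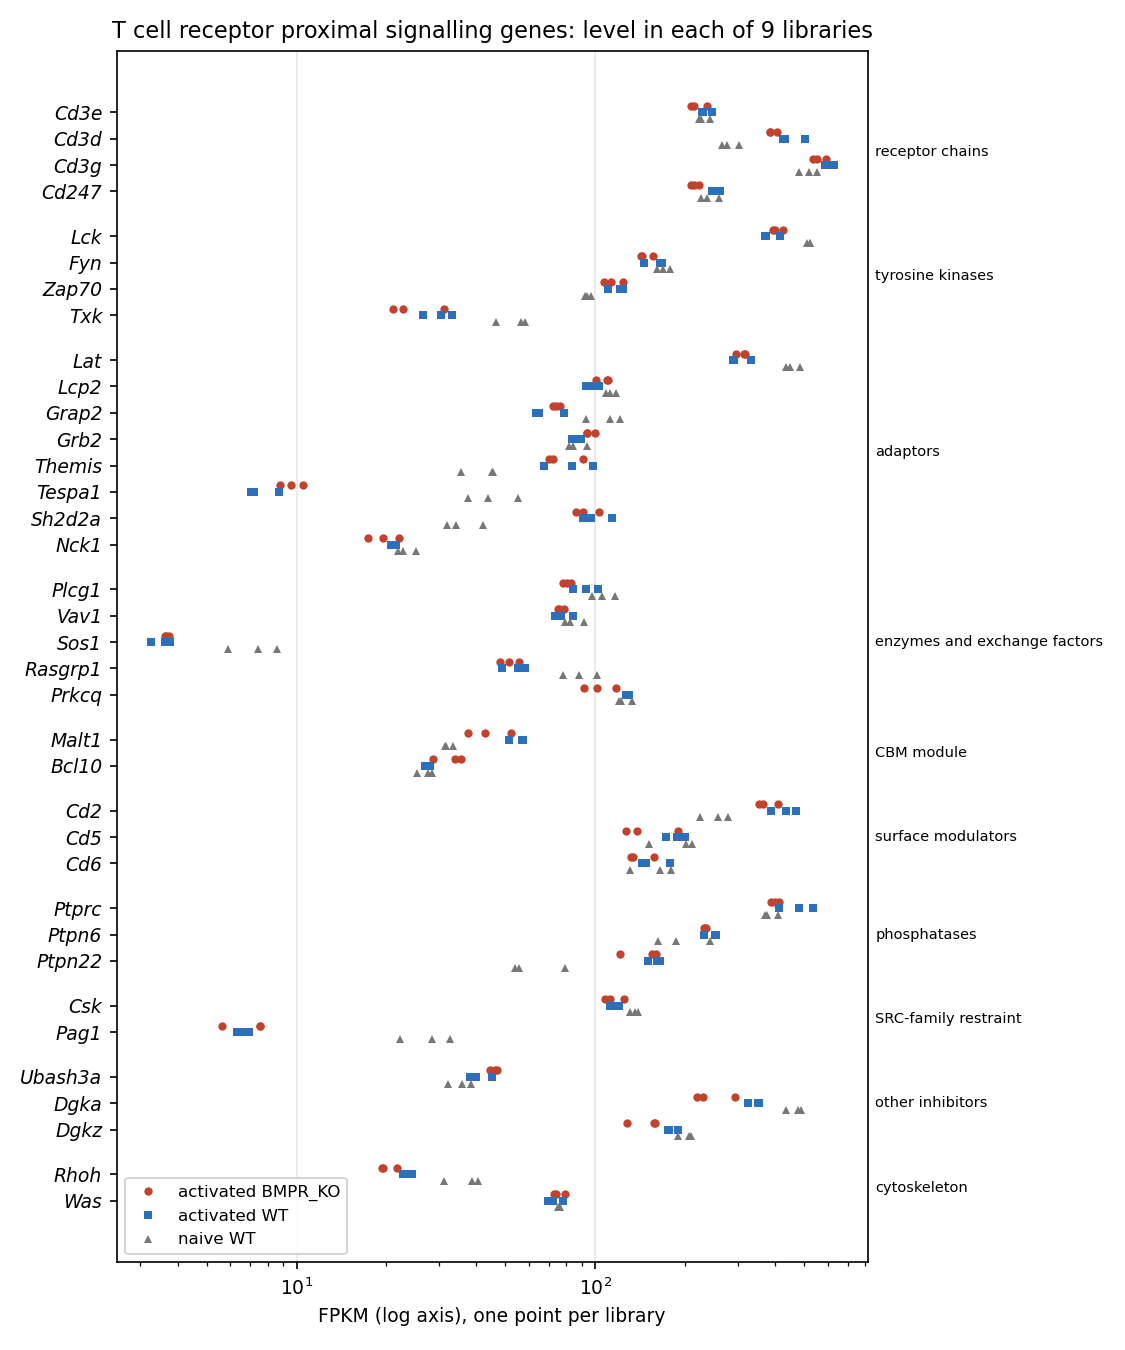
Level of each of the 36 genes in FPKM on a log axis, with a row per gene, a point per library and a colour per group. Tespa1 and Pag1 are farthest apart toward lower levels in the 6 activated libraries, and Sh2d2a and Ptpn22 toward higher levels.

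The 4 CD3 chains were described first. Cd3d, Cd3g and Cd3e encode the delta, gamma and epsilon chains, which sit beside each other on chromosome 9, and Cd247 encodes the zeta chain, on chromosome 1, which carries most of the tyrosine motifs of the complex. The 250 bases before the annotated start of each are printed because the 4 chains of one complex did not move alike, and that of Ptpn22, the phosphatase gene with the largest rise, is set beside them. They are from RefSeq, build GRCm38.p6, read 5′ to 3′ on the strand of the gene. RefSeq windows were found for 30 of the 36 genes (44 windows), and not for Tespa1, Pag1, Sh2d2a, Cd2, Cd6 and Malt1. Positions are chr9:44981536-44981785 on the plus strand for Cd3d, chr9:44980432-44980681 on the minus strand for Cd3g, chr9:45009612-45009861 on the minus strand for Cd3e, chr1:165788431-165788680 on the plus strand for Cd247 and chr3:103859545-103859794 on the plus strand for the first of 2 windows of Ptpn22. Capitals mark exact matches, on either strand, to GGAAGT (a form of the ETS motif, ACTTCC on the other strand) and to CTTTGA (a form of the TCF/LEF motif, TCAAAG on the other strand). Other forms of these motifs were not searched.
Cd3d: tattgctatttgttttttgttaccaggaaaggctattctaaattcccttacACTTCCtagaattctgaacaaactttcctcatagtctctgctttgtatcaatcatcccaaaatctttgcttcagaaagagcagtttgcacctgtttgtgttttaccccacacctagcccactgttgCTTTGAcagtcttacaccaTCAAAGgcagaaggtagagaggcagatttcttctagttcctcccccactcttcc
Cd3g: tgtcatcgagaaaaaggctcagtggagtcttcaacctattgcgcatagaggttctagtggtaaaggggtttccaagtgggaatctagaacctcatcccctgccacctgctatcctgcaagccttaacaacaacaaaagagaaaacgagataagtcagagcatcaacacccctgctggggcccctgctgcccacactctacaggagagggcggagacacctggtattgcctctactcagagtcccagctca
Cd3e: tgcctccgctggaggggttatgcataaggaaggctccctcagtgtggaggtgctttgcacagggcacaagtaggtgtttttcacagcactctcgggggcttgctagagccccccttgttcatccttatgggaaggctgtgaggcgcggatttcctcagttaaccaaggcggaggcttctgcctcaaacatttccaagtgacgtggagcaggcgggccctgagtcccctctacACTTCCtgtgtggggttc
Cd247: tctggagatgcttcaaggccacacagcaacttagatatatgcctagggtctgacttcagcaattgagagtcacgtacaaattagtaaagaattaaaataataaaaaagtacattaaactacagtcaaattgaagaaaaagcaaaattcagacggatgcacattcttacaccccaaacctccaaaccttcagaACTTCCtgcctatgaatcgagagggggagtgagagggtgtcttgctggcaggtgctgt
Ptpn22: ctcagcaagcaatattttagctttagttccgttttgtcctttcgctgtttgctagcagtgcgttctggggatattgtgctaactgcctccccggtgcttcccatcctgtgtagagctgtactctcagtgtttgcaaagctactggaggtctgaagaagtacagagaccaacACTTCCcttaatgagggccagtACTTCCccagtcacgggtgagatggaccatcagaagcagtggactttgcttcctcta

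The Cd3d and Cd3g starts are 1355 bases apart and face away from each other. The exact letters GGAAGT were found once before Cd3d, Cd3e and Cd247, at 2 places before Ptpn22 and not in the Cd3g window. CTTTGA was found at 2 places before Cd3d. Shorter or other forms of either motif were not counted. Matches of different motifs did not overlap. Over all member windows, GGAAGT was present in 43.2% (19 of 44), against 19.7% of 32851 mouse windows. CTTTGA was in 15.9% of member windows against 13.8%, TGTGGT (RUNX) in 13.6% against 14%, CAGCTG (E-box) in 4.55% against 13% and TGANTCA (AP-1) in 0 of 44 against 6.75%. These are matches of letters in short windows, some genes have several windows, and no binding was measured. Whether the matches go with the differences in RNA was not tested.

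Cd3d stood at 408, 384 and 384 FPKM in activated BMPR_KO libraries, 427, 433 and 504 FPKM in activated WT libraries and 276, 265 and 303 FPKM in naive WT libraries. The 3 groups did not overlap, with activated WT highest and naive WT lowest. Cd3d rose 1.61-fold in mean FPKM in activated WT over naive WT cells (log2 difference 0.69, SE 0.0862, limma adjusted p = 0.000422). Cd3g, the most abundant of the 36 genes in activated cells, was at 592, 555 and 535 FPKM in activated BMPR_KO, 628, 587 and 624 FPKM in activated WT and 520.2, 479.5 and 554 FPKM in naive WT libraries. All activated WT libraries lay above the naive ones, and Cd3g rose by a log2 difference of 0.24 (SE 0.0776, limma adjusted p = 0.0296). This call ended when naive library 1 or 2 or activated WT library 1 or 3 was left out, with differences of 0.19 to 0.249 and adjusted p from 0.0628 to 0.0802.

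Cd3e was at 237, 209 and 214 FPKM in activated BMPR_KO, 228, 229 and 246 FPKM in activated WT and 242, 225 and 222 FPKM in naive WT libraries. The groups overlapped, and the log2 difference between activated WT and naive WT cells was 0.03 (95% interval -0.14 to 0.19, limma adjusted p = 0.779). Cd247 was at 222, 209.9 and 214 FPKM in activated BMPR_KO, 262, 247 and 246 FPKM in activated WT and 259, 226 and 237 FPKM in naive WT libraries. Every BMPR_KO library lay below every library of both other groups, while activated WT and naive WT overlapped (log2 difference 0.07, limma adjusted p = 0.428). Of the exon bases of Cd247, 56.4% also belong to Pou2f1 on the opposite strand, which reached at most 12.4 FPKM, and without a known strand setting reads of the shared bases cannot be assigned. The ratio of Cd3d to Cd3e in FPKM, computed within each library, was 1.78 ± 0.0603 in activated BMPR_KO, 1.94 ± 0.0967 in activated WT and 1.23 ± 0.121 in naive WT cells (SD, n = 3). Naive libraries had the lowest ratios, and the activated groups did not overlap either.

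**Figure D3:**
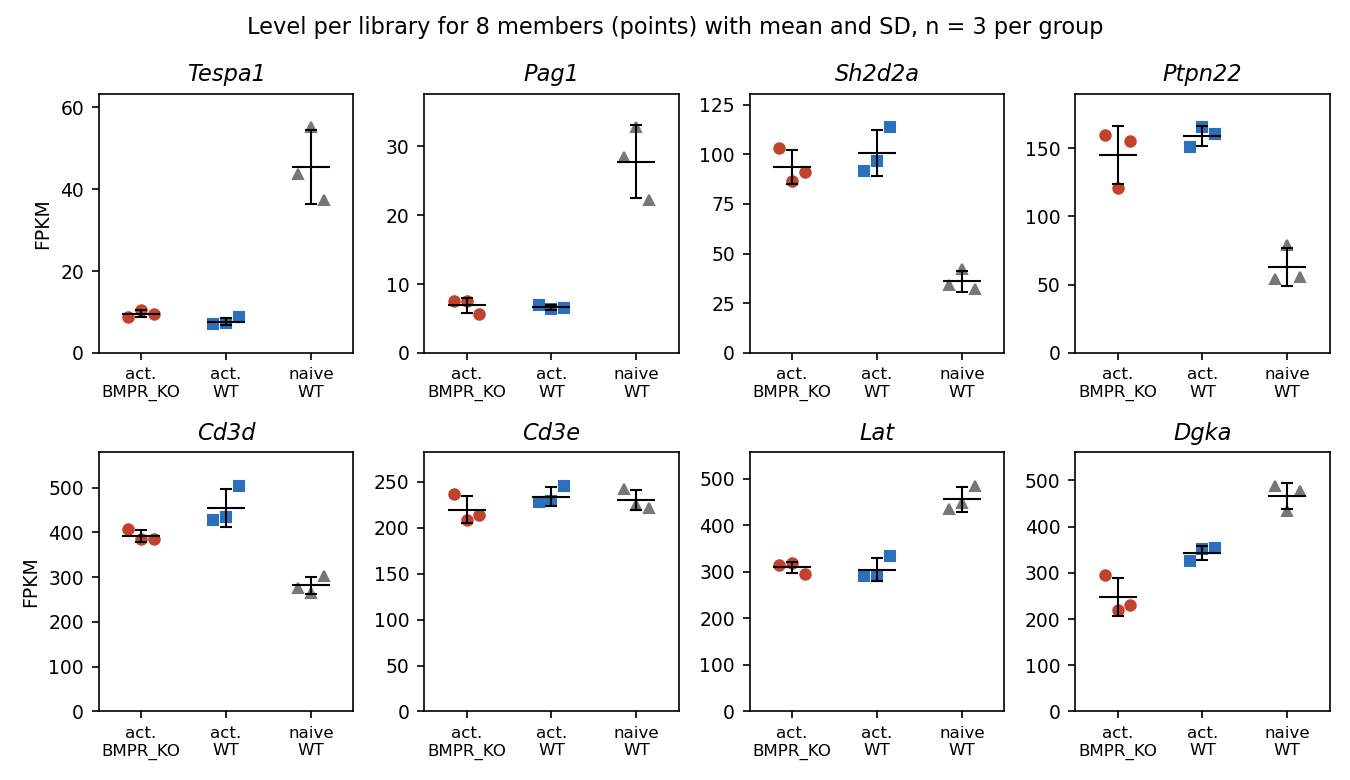
FPKM per library of 8 genes, with the 3 libraries of each group as points, the mean as a horizontal line and the SD as whiskers, on axes that start at 0. Sh2d2a, Ptpn22 and Cd3d are lower in naive WT cells, Tespa1, Pag1, Lat and Dgka are higher there, and the groups of Cd3e overlap.

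Among the 4 tyrosine kinases, Lck and Txk fell, Zap70 rose and Fyn did not pass the test. Lck, the SRC family kinase that starts the cascade at the CD3 chains, was at 425, 393 and 399.5 FPKM in activated BMPR_KO, 373, 369.7 and 415 FPKM in activated WT and 525, 523 and 511 FPKM in naive WT libraries. All 6 activated libraries were below all 3 naive ones, and the log2 difference of activated WT from naive WT was -0.43 (SE 0.068, limma adjusted p = 0.00127). Zap70, the kinase recruited by phosphorylated CD3 chains, went the other way, with 124, 113 and 107 FPKM in activated BMPR_KO, 121, 109.95 and 123 FPKM in activated WT and 92.5, 93.8 and 97.1 FPKM in naive WT libraries. The activated libraries lay above the naive ones without overlap, and Zap70 rose by 0.32 (SE 0.072, limma adjusted p = 0.00719). The within-library ratio of Zap70 to Lck was 0.282 ± 0.01255 in activated BMPR_KO, 0.307 ± 0.01555 in activated WT and 0.182 ± 0.00712 in naive WT cells (SD, n = 3). This ratio was higher in each activated library than in any naive one.

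Txk, a TEC family kinase of resting T cells, was at 31.1, 22.7 and 21.1 FPKM in activated BMPR_KO, 26.6, 30.4 and 33.0 FPKM in activated WT and 58.3, 46.6 and 56.3 FPKM in naive WT libraries. The activated groups overlapped with each other and lay below the naive group, and Txk fell in activated WT cells (log2 difference -0.82, limma adjusted p = 0.00326). Fyn, the second SRC family kinase of T cells, averaged 147 ± 7.87 FPKM in activated BMPR_KO, 159 ± 12 in activated WT and 169 ± 8.66 in naive WT cells (SD, n = 3), and its difference between activated WT and naive WT was -0.09 (limma adjusted p = 0.366).

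Of the 8 adaptors, 2 rose, 4 fell and 2 did not pass the test, and they held both the largest rise and the largest fall among the 36 genes. Lat, the membrane scaffold that ZAP70 phosphorylates, was at 316, 318 and 296 FPKM in activated BMPR_KO, 291, 290.2 and 334 FPKM in activated WT and 434, 449 and 485 FPKM in naive WT libraries. All activated libraries lay below the naive ones, and Lat fell by 0.58 on the log2 scale in activated WT cells (SE 0.079, limma adjusted p = 0.000616). Lcp2, which encodes SLP-76, the adaptor that joins phospholipase C and VAV1 to LAT, was at 110.1, 109.9 and 100.3 FPKM in activated BMPR_KO, 103, 93.5 and 99.3 FPKM in activated WT and 112, 117 and 109 FPKM in naive WT libraries. Activated WT lay below naive WT, with a log2 difference of -0.19 (SE 0.065, limma adjusted p = 0.037). That call ended without naive library 1 or 2 or activated WT library 2 or 3 (-0.198 to -0.155, adjusted p from 0.066 to 0.116) and under median-of-ratios scaling (-0.156, adjusted p = 0.107).

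Tespa1, an adaptor needed for thymocyte selection in mice, lies on the plus strand at chr10:130322870-130364111. It was at 8.80, 10.5 and 9.55 FPKM in activated BMPR_KO, 7.06, 7.20 and 8.72 FPKM in activated WT and 43.8, 55.1 and 37.4 FPKM in naive WT libraries. The lowest naive library was more than 3 times as high as any activated library, and Tespa1 fell in activated WT cells by 2.41 on the log2 scale (SE 0.145, limma adjusted p = 1.55e-05). Sh2d2a, which encodes the LCK-binding adaptor TSAd, lies on the plus strand at chr3:87846755-87855722. It was at 103, 86.5 and 91.2 FPKM in activated BMPR_KO, 91.4, 96.6 and 114 FPKM in activated WT and 34.2, 42.1 and 32.0 FPKM in naive WT libraries. Activated and naive libraries did not overlap, and Sh2d2a rose 2.78-fold in mean FPKM (log2 difference 1.46, SE 0.126, limma adjusted p = 7.44e-05).

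Themis, an adaptor-like protein of the LAT complex best known for its role in thymocyte selection, averaged 77.8 ± 11.7 FPKM in activated BMPR_KO, 83.1 ± 15.3 in activated WT and 42.1 ± 5.58 in naive WT cells (SD, n = 3), and it rose in activated WT cells by 0.96 (limma adjusted p = 0.00203). Grap2, which encodes GADS, the link between LAT and SLP-76, averaged 74.1 ± 2.02, 68.7 ± 8.36 and 109 ± 14.4 FPKM in the same groups and fell (log2 difference -0.65, limma adjusted p = 0.00213). Its relative Grb2, which brings SOS1 to LAT, averaged 95.9 ± 3.56, 86.9 ± 3.29 and 86.5 ± 6.47 FPKM, and its difference of 0.01 between activated WT and naive WT did not pass (limma adjusted p = 0.934). Thus the ratio of Grap2 to Grb2 was 0.773 ± 0.0146 in activated BMPR_KO, 0.790 ± 0.07575 in activated WT and 1.26 ± 0.203 in naive WT cells (SD, n = 3). Nck1, an adaptor to the actin machinery, averaged 19.6 ± 2.35, 21.2 ± 0.492 and 23.2 ± 1.71 FPKM. All its activated WT libraries were below the naive ones, yet limma gave its difference of -0.12 an adjusted p of 0.299.

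Of the 5 enzymes and exchange factors, Sos1 and Rasgrp1 fell and Plcg1, Vav1 and Prkcq did not pass. Sos1 and Rasgrp1 both load Ras with GTP, Sos1 at GRB2 and Rasgrp1 when diacylglycerol binds it. Rasgrp1 averaged 51.7 ± 3.97 FPKM in activated BMPR_KO, 53.9 ± 4.78 in activated WT and 89.1 ± 11.8 in naive WT cells (SD, n = 3), with a log2 difference of -0.71 between activated WT and naive WT (limma adjusted p = 0.00129). Sos1, the least abundant of the 36 genes in all 3 groups, averaged 3.68 ± 0.0678, 3.55 ± 0.264 and 7.30 ± 1.36 FPKM in the same groups, and its difference was -0.86 (limma adjusted p = 0.000724). Both genes were lower in each activated library than in any naive one. Plcg1, the phospholipase that makes diacylglycerol and inositol trisphosphate, averaged 80.4 ± 2.38, 93.3 ± 9.13 and 106 ± 9.28 FPKM (log2 difference -0.19, limma adjusted p = 0.112). Without activated WT library 3 it was called lower (-0.259, adjusted p = 0.0466). Vav1, an exchange factor for Rac, averaged 76.4 ± 2.06, 78.1 ± 5.8 and 84.2 ± 6.48 FPKM, with a difference of -0.11 (limma adjusted p = 0.275).

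Prkcq, Malt1 and Bcl10 lead toward NF-kappaB. Prkcq, which encodes protein kinase C theta, averaged 104 ± 12.9 FPKM in activated BMPR_KO, 129 ± 2.14 in activated WT and 125 ± 6.69 in naive WT cells (SD, n = 3), with a log2 difference of 0.05 between activated WT and naive WT (limma adjusted p = 0.682). BCL10 and MALT1 act in a signalling complex downstream of this kinase. Malt1, its protease, averaged 44.2 ± 7.55, 55.1 ± 3.29 and 32.1 ± 1.05 FPKM in the same groups and rose in activated WT cells (0.76, limma adjusted p = 0.00101). Bcl10 averaged 32.8 ± 3.6, 27.5 ± 0.586 and 27.1 ± 1.63 FPKM and had a difference of 0.02 (limma adjusted p = 0.862). The ratio of Malt1 to Bcl10 was 1.38 ± 0.39 in activated BMPR_KO, 2.005 ± 0.149 in activated WT and 1.19 ± 0.111 in naive WT cells (SD, n = 3), so it was highest in activated WT libraries.

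Of the 3 surface modulators, Cd2 rose. Cd2, an adhesion receptor that strengthens T cell contacts, averaged 377 ± 30.2 FPKM in activated BMPR_KO, 432 ± 41.9 in activated WT and 254 ± 27.5 in naive WT cells (SD, n = 3), with a log2 difference of 0.77 between activated WT and naive WT (limma adjusted p = 0.00081). Cd5 and Cd6, related scavenger receptor proteins that dampen receptor signals, had differences of 0.00 and -0.01 (limma adjusted p = 0.996 and 0.949). Cd5 averaged 152 ± 33.4, 187 ± 13.6 and 188 ± 31.6 FPKM in the same groups, and Cd6 averaged 141 ± 14.1, 156 ± 18.4 and 158 ± 25 FPKM. Their 95% intervals ran from -0.40 to 0.41 for Cd5 and from -0.33 to 0.31 for Cd6, wider than those of most other members.

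Among the 3 phosphatases, Ptpn22 rose most. Ptpn22, which removes the activating phosphates of LCK and ZAP70, was at 159.5, 121 and 155 FPKM in activated BMPR_KO, 151, 165 and 160.4 FPKM in activated WT and 53.8, 78.9 and 55.5 FPKM in naive WT libraries. The activated libraries lay above the naive ones without overlap, and Ptpn22 rose 2.53-fold in mean FPKM in activated WT cells (log2 difference 1.35, SE 0.162, limma adjusted p = 0.000342). Ptprc, which encodes CD45, the phosphatase that keeps LCK ready by removing its inhibitory phosphate, averaged 399 ± 12.4 FPKM in activated BMPR_KO, 476 ± 60.9 in activated WT and 386 ± 20.9 in naive WT cells (SD, n = 3). Ptprc rose by 0.30 in activated WT cells (limma adjusted p = 0.0363). This call ended under quantile normalization (0.162, adjusted p = 0.27), with only the 6 libraries compared (adjusted p = 0.0729), and without naive library 2 or 3, activated WT library 1 or 2, or BMPR_KO library 2 or 3, with differences of 0.208 to 0.295 and adjusted p from 0.0523 to 0.106.

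Ptpn6, which encodes the inhibitory phosphatase SHP-1 of blood cells in general, was at 235.5, 233 and 232 FPKM in activated BMPR_KO, 255, 232 and 251 FPKM in activated WT and 162, 242 and 187 FPKM in naive WT libraries. Only naive library 2 reached the level of the activated ones. The difference of 0.34 between activated WT and naive WT missed the threshold (limma adjusted p = 0.0643), while without naive library 2, the one with the highest myeloid sum, it was 0.495 (adjusted p = 0.0026). The part of myeloid RNA in this value was not tested.

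The remaining members restrain the signal or act on the cytoskeleton. Csk, the kinase that puts the inhibitory phosphate on LCK, averaged 115 ± 8.98 FPKM in activated BMPR_KO, 115 ± 4.23 in activated WT and 136 ± 4.35 in naive WT cells (SD, n = 3), and it fell in activated WT cells (log2 difference -0.23, limma adjusted p = 0.0237). That call ended without naive library 2 or 3 or activated WT library 1 or 2 (-0.225 to -0.206, adjusted p from 0.0516 to 0.0756). Pag1, the membrane anchor that holds CSK near LCK, lies on the minus strand at chr3:9687479-9833679. It was at 7.54, 7.52 and 5.64 FPKM in activated BMPR_KO, 6.94, 6.33 and 6.55 FPKM in activated WT and 28.5, 32.8 and 22.1 FPKM in naive WT libraries. No activated library came near a naive one, and Pag1 fell by 1.90 on the log2 scale in activated WT cells (SE 0.153, limma adjusted p = 5.11e-05). The within-library ratio of Pag1 to Csk was 0.0599 ± 0.00739 in activated BMPR_KO, 0.0573 ± 0.00301 in activated WT and 0.206 ± 0.042 in naive WT cells (SD, n = 3), and that of Ptpn22 to Csk was 1.26 ± 0.179, 1.38 ± 0.0904 and 0.463 ± 0.101. Anchor and phosphatase thus moved in opposite directions relative to the kinase.

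Diacylglycerol kinases remove the diacylglycerol that RASGRP1 and protein kinase C theta need. Dgka was at 295, 219 and 230.05 FPKM in activated BMPR_KO, 325, 351 and 353 FPKM in activated WT and 488, 435 and 478 FPKM in naive WT libraries. The 3 groups did not overlap, with activated BMPR_KO lowest, and Dgka fell in activated WT cells against naive WT cells (log2 difference -0.44, SE 0.116, limma adjusted p = 0.0131). Dgkz averaged 148 ± 17.5, 180.5 ± 7.62 and 201 ± 10.7 FPKM (SD, n = 3), with a difference of -0.15 between activated WT and naive WT (limma adjusted p = 0.204). Ubash3a, a suppressor of receptor signals, averaged 45.8 ± 1.26, 41.0 ± 3.58 and 35.4 ± 3.17 FPKM, and its difference of 0.21 passed only without naive library 2 (0.265, adjusted p = 0.0411) among the 17 other settings, the main value being an adjusted p of 0.0758 from limma. Rhoh, a GTPase-deficient small G protein that helps ZAP70 reach the receptor, averaged 20.2 ± 1.35, 23.4 ± 0.804 and 36.7 ± 4.8 FPKM and fell (-0.62, limma adjusted p = 0.00135). Was, the actin nucleation promoter of blood cells, averaged 75.2 ± 3.43, 73.2 ± 4.47 and 75.6 ± 0.646 FPKM, with a difference of -0.05 and a 95% interval of -0.19 to 0.10.

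Activated BMPR_KO cells were then compared with activated WT cells, which asks whether the genotype label goes with a different signalling machinery at the same stage. None of the 36 genes passed the test by limma, where 4.14% of all genes tested did (626 genes). At an unadjusted p under 0.05 there were 9 members, 1 higher and 8 lower, which is 25% of them, the same share as the 25% of all genes tested. The groups did not overlap in 11 members (30.6%), beside 31.2% of all genes tested. Of these 11, Grb2, Bcl10 and Tespa1 were higher in every BMPR_KO library, and Cd3d, Cd247, Plcg1, Ptprc, Prkcq, Rhoh, Dgka and Dgkz were lower. Over all genes tested, 22.8% were higher and 8.36% lower without overlap. The estimates of 25 of the 36 members were below 0, where 38.7% of all genes tested were. Their median log2 difference was -0.095, with a range of -0.478 to 0.297, and that of all genes tested was 0.058. Without 1 library the members' median was -0.0558 (activated WT library 3), -0.0562 (BMPR_KO library 2) or -0.15 (BMPR_KO library 1). It was -0.172 under median-of-ratios scaling and -0.156 under quantile normalization. The medians of all genes tested under these scalings were 0 and -0.00052, in that order. The number of all genes called, 626, moved with single libraries: it was between 64 (without activated WT library 2) and 1037 (without BMPR_KO library 1) when 1 was left out.

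**Figure D4:**
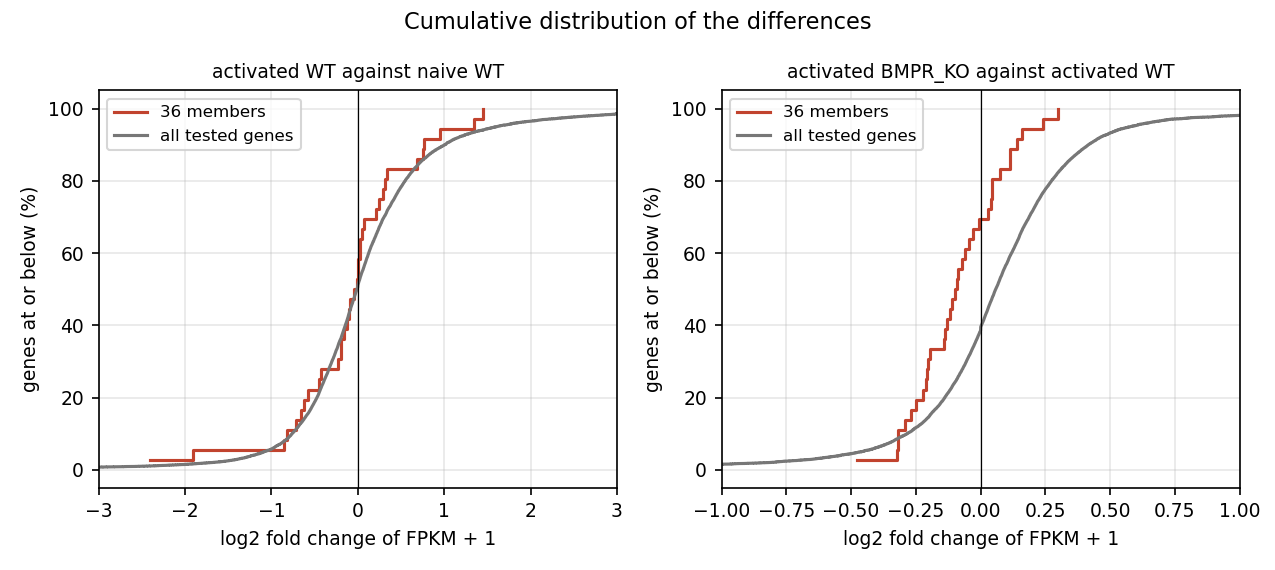
Cumulative share, in percent, of genes at or below each log2 difference, for the 36 members and for all 15126 genes tested, in a panel each for activated WT against naive WT and activated BMPR_KO against activated WT, whose axes leave out the tails of all genes. In the second panel most of the members' curve lies to the left, with medians of -0.095 for members and 0.058 for all genes, and in the first the medians are -0.030 and -0.009.

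Dgka came closest to the threshold. Its 3 BMPR_KO libraries, at 219 to 295 FPKM, were all below its 3 activated WT libraries, at 325 to 353 FPKM. The mean was 0.723 times that of activated WT cells and the log2 difference was -0.48 (95% interval -0.75 to -0.21, limma adjusted p = 0.0598). Its call depended on the library and the scaling: it passed without BMPR_KO library 1 (-0.609, adjusted p = 0.0119), under median-of-ratios scaling (-0.555, adjusted p = 0.0473) and with array quality weights (-0.532, adjusted p = 0.0088). The within-library ratio of Dgka to Rasgrp1 sets the kinase that removes diacylglycerol over the exchange factor that needs it. This ratio was 4.785 ± 0.515 in activated BMPR_KO, 6.38 ± 0.314 in activated WT and 5.28 ± 0.405 in naive WT cells (SD, n = 3). Activated WT libraries lay above those of both other groups, and activated BMPR_KO and naive WT overlapped.

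Prkcq was next, at 118, 102 and 92.0 FPKM in activated BMPR_KO and 130.25, 127 and 130.3 FPKM in activated WT libraries. All BMPR_KO libraries were lower, and the log2 difference was -0.32 (95% interval -0.53 to -0.11, limma adjusted p = 0.0853). It passed without BMPR_KO library 1 (-0.412, adjusted p = 0.0255). Cd247 had a difference of -0.22 (limma adjusted p = 0.097), Dgkz -0.29 (0.112) and Malt1 -0.32 (0.135), where Malt1 libraries overlapped between the groups. Bcl10 was the only one of the 9 that was higher, at 35.7, 28.7 and 33.9 FPKM in activated BMPR_KO and 27.9, 27.7 and 26.8 FPKM in activated WT libraries. Its groups did not overlap, with BMPR_KO library 2 nearest to the WT level, and the difference was 0.24 (limma adjusted p = 0.14).

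No other receptor chain and no kinase passed either. Cd3d had -0.21 (limma adjusted p = 0.179), Cd3g -0.13 (0.344) and Cd3e -0.09 (0.473), so all 4 CD3 chains had estimates below 0. Lck had a difference of 0.07 with a 95% interval of -0.08 to 0.23, Zap70 -0.05 (-0.21 to 0.12) and the scaffold Lat 0.03 (-0.16 to 0.21). Txk had the largest difference of the kinases, -0.27 (-0.63 to 0.09, limma adjusted p = 0.335), and Fyn had -0.11 (-0.29 to 0.07, limma adjusted p = 0.419). The differences of Tespa1, Pag1, Sh2d2a and Ptpn22, the genes that moved most with activation, were 0.30, 0.05, -0.10 and -0.14 (limma adjusted p from 0.25 to 0.899). With array quality weights, 3 members were called higher (Bcl10, Tespa1 and Ubash3a) and 5 lower (Cd247, Dgka, Malt1, Prkcq and Ptprc), while that setting called 3851 of all genes tested.

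**Figure D5:**
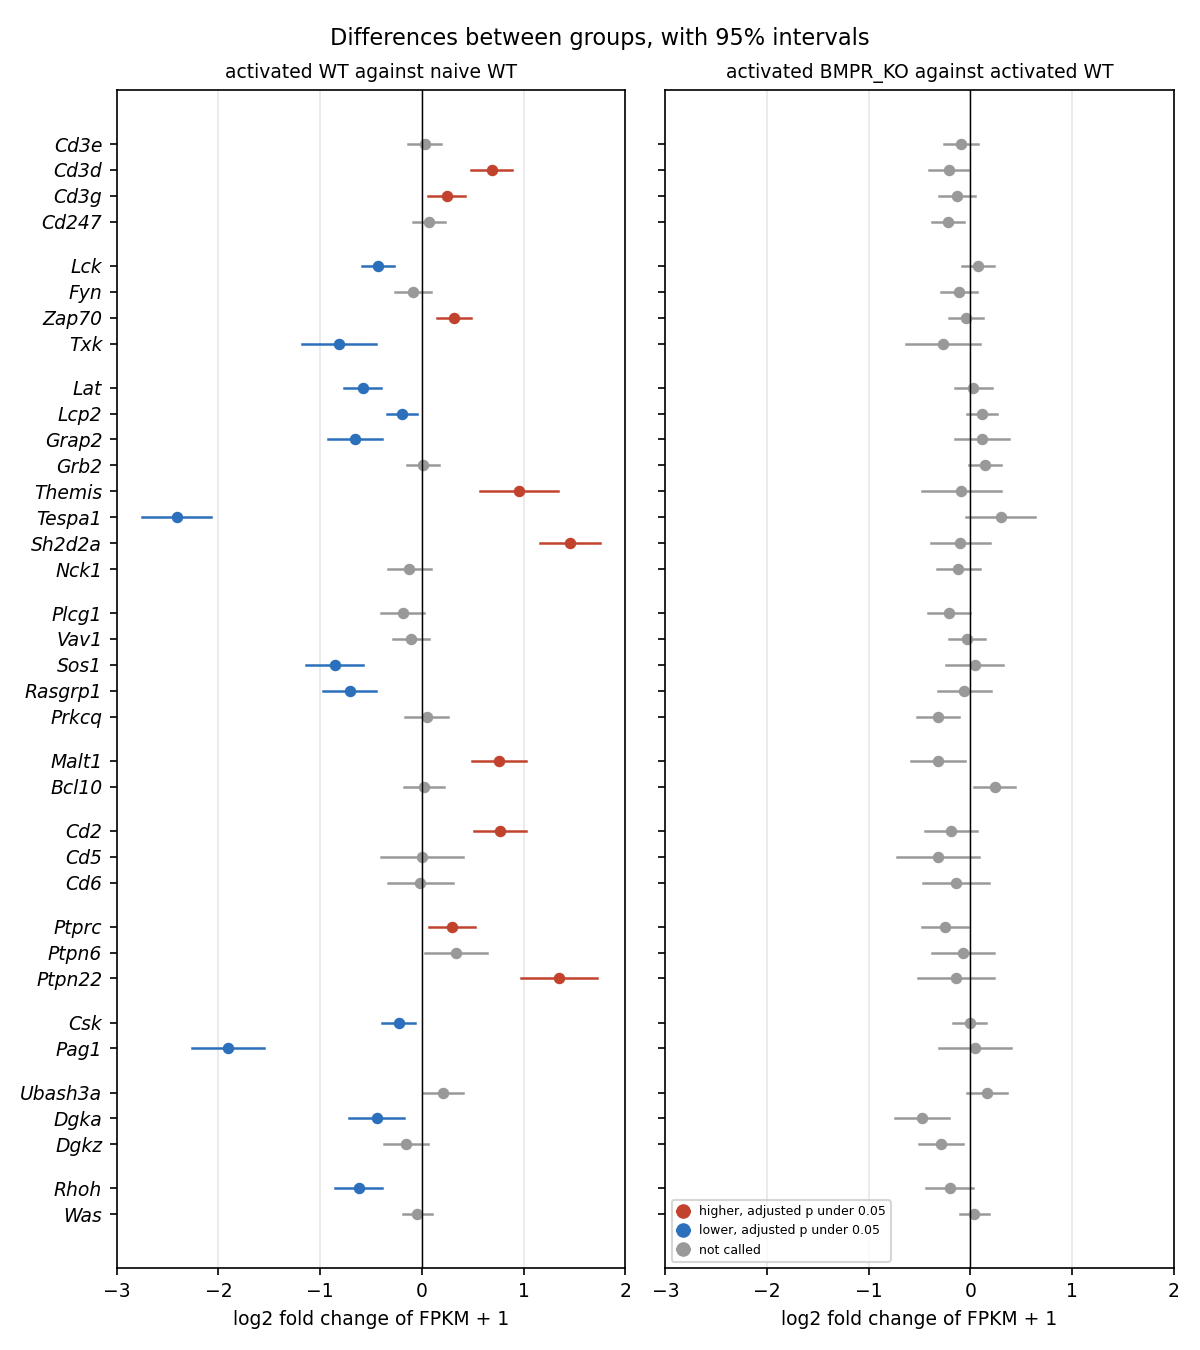
Log2 difference of FPKM + 1 for each of the 36 genes with its 95% interval, in a panel each for activated WT against naive WT and activated BMPR_KO against activated WT, coloured by call, with a vertical line at 0. Differences between activated WT and naive WT run from -2.41 to 1.46, while those between activated BMPR_KO and activated WT stay between -0.478 and 0.297.

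Activated BMPR_KO cells were last compared with naive WT cells, where genotype and activation differ together. This comparison shares its libraries with those above, so it is given as values and not as further evidence. Of the 36 genes, 9 rose and 14 fell (63.9%, against 56.9% of all genes tested, 31.8% higher and 25.1% lower), with a median log2 difference of -0.156 beside 0.044 over all genes tested. Under quantile normalization, which put the median of all genes tested at -0.08, 5 members rose and 23 fell, with a members' median of -0.344. That setting called 8861 of all 15126 genes tested here. Called higher in both activated groups over naive WT were 7 members: Cd2, Cd3d, Malt1, Ptpn22, Sh2d2a, Themis and Zap70. Called lower in both were 11: Csk, Dgka, Grap2, Lat, Lck, Pag1, Rasgrp1, Rhoh, Sos1, Tespa1 and Txk. The share of all genes tested that were called the same way in both was not computed. Without it, the counts of 7 and 11 cannot be read as a trait of these members. Both comparisons use the same naive libraries, so their calls are not independent.

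The same 4 genes had log2 differences of at least 1 as in activated WT cells, namely Tespa1 at -2.11, Pag1 at -1.86, Sh2d2a at 1.36 and Ptpn22 at 1.21, and Txk joined them at -1.09 (limma adjusted p = 0.000672). Over all genes tested, 10.9% were called at least 2-fold higher and 5.09% at least 2-fold lower. The libraries of Txk, given above, did not overlap between activated BMPR_KO and naive WT. Bcl10 (0.26, limma adjusted p = 0.0332) and Ubash3a (0.37, 0.00713) were called higher here, and Dgkz (-0.45, 0.00445), Plcg1 (-0.40, 0.00607) and Prkcq (-0.27, 0.0334) lower, while in activated WT against naive WT these 5 did not pass. Cd3g, Ptprc and Lcp2 passed in activated WT cells and not here. None of these 8 was called between activated BMPR_KO and activated WT cells. Leaving out 1 library ended the calls of Bcl10 (naive library 1 or 3, activated WT library 2, or BMPR_KO library 1 or 3, log2 differences of 0.197 to 0.272, adjusted p from 0.0514 to 0.106), Prkcq (naive library 1 or 2 or BMPR_KO library 2 or 3, from 0.0544 to 0.104) and Csk (BMPR_KO library 2 or 3, from 0.0569 to 0.0642). The Bcl10 call also ended under median-of-ratios scaling (0.22, adjusted p = 0.062) and quantile normalization (0.129, 0.242), and quantile normalization ended those of Zap70 (0.0761, 0.338), Malt1 (0.295, 0.0543) and Ubash3a (0.228, 0.0523). With only the 6 libraries compared, Bcl10 (adjusted p = 0.0723) and Prkcq (0.0719) did not pass. Leaving out 1 library added Cd5, Fyn and Nck1 without BMPR_KO library 1 (adjusted p from 0.0168 to 0.0412), Fyn without activated WT library 1 (0.0362) or naive library 3 (0.0438), and Cd247, Grb2 and Ptpn6 without naive library 2 (0.00416 to 0.0383).

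A wider list of 104 pathway partners, none of them among the 36, was counted in the same fit, and all but Gab2, at 0.492 FPKM or less, were tested. In activated WT against naive WT cells, 33 rose and 34 fell (65%, against 52% of all genes tested, 26.2% higher and 25.8% lower). The 31 genes of lipid, Ras and calcium signalling had 7 rises and 15 falls, and the 11 phosphatases and ubiquitin ligases had 6 rises and 2 falls. The 10 genes of the NF-kappaB arm had 1 rise and 5 falls, the 6 further kinases 0 and 4, the 21 adaptors 8 and 4, the 19 actin regulators 8 and 4, and the 5 receptor and coreceptor genes 3 and 0.

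The partners with the largest differences were Cd8a and Cd8b1, which encode the CD8 coreceptor, at log2 differences of 4.10 and 2.77 (limma adjusted p = 0.0024 and 0.000528). Cd8a was at 74.9, 105 and 107 FPKM in activated BMPR_KO, 53.4, 52.0 and 79.3 FPKM in activated WT and 2.49, 0.0965 and 11.1 FPKM in naive WT libraries, so all activated libraries were above the naive ones, although cells of all 3 groups were sorted as CD4+. Next came 3 genes whose products restrain or end receptor signals: Sla, encoding the adaptor SLAP (2.09), Cblb, a ubiquitin ligase (2.02), and Dusp22, a phosphatase (1.88). Sla averaged 243 ± 34.1 FPKM in activated BMPR_KO, 304 ± 32.8 in activated WT and 70.7 ± 7.47 in naive WT cells (SD, n = 3). Skap2, an adaptor (1.59), and Vav2, a relative of Vav1 (1.46), also rose, and Sit1, a membrane adaptor, fell by 1.26 (limma adjusted p from 7.84e-06 to 0.000226 over these 6 genes).

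Between activated BMPR_KO and activated WT cells, 2 of the 103 partners rose and none fell by limma (1.94%, against 4.14% of all genes tested), and 21 had an unadjusted p under 0.05, beside 25% of all genes tested. Dok2, an adaptor that restrains Ras, was at 100.3, 86.4 and 81.0 FPKM in activated BMPR_KO and 47.8, 55.3 and 56.9 FPKM in activated WT libraries, without overlap (log2 difference 0.73, SE 0.0999, limma adjusted p = 0.0185). Map3k7, which encodes TAK1, the kinase between the BCL10 complex and NF-kappaB, was at 27.9, 29.3 and 31.8 FPKM in activated BMPR_KO and 21.2, 23.0 and 20.7 FPKM in activated WT libraries, also without overlap (0.44, SE 0.0702, limma adjusted p = 0.0272). The Dok2 call ended without activated WT library 2 (adjusted p = 0.074) or BMPR_KO library 2 (0.0604). That of Map3k7 ended without naive library 1, any 1 of the activated WT libraries, or BMPR_KO library 2 or 3 (0.387 to 0.477, adjusted p from 0.0543 to 0.105), and under both other scalings (0.344 and 0.362, adjusted p = 0.0518 and 0.0517).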

How the data were processed

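The authors deposited 1 table of FPKM values with a column for each of the 9 libraries (3 activated BMPR_KO, 3 activated WT, 3 naive WT). TopHat2, Cufflinks, Cuffdiff and build GRCm38 are named per the submitters' processing notes, and for their versions, the annotation and strand setting the entry is: not given in the sources used here. FPKM values are fractional estimates, so the depth is unknown and no counting interval was computed. No other column of samples was left aside. Groups were taken from sample titles, and symbols and positions from the GENCODE annotation of GRCm38. Of the 36 genes, 10 share exon bases with another annotated gene, in 9 of them under 10%.

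The 15126 genes whose 9 libraries averaged 0.5 FPKM or more were tested on log2(FPKM + 1), a pseudocount of 1, with limma 3.58.1 in R 4.3.3: empirical Bayes with an intensity trend, 1 fit of all 9 libraries with group means, two-sided, Benjamini-Hochberg over all genes tested, threshold 0.05. The test was checked on simulated data. Percentages of all genes tested refer to that fit. The members and all lists were chosen with earlier results of these data known.

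Values per library are given for the 4 CD3 chains, Lck, Zap70, Lat and Lcp2, for members called without overlap at an absolute log2 difference of at least 1, and for any called between the activated groups. Partners named are up to 8 called genes of largest difference per comparison without overlap and with a group mean of at least 5 FPKM. Per-library values of Dgka, Prkcq, Bcl10 and Ptpn6 were added after their values were seen. Alternatives tried were a pseudocount of 0.1, no filter, a filter at 2 FPKM, median-of-ratios scaling, quantile normalization, only the 6 libraries compared, the replicate number as a block, array quality weights and leaving out each library, 17 in all.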

Additional observations from a re-analysis of the deposited data

How the results depend on the processing

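For activated WT against naive WT, 17 of the 21 called members kept their call under each of the 17 alternatives, and Cd3g, Lcp2, Ptprc and Csk did not. For activated BMPR_KO against naive WT, 17 of 23 kept it, and Zap70, Csk, Prkcq, Malt1, Bcl10 and Ubash3a did not. For activated BMPR_KO against activated WT, median-of-ratios scaling called 1 member lower (Dgka), and array quality weights called 3 higher and 5 lower. Leaving out 1 library gave 0 to 2 lower there, with 2 (Dgka and Prkcq) without BMPR_KO library 1. For activated BMPR_KO against naive WT, quantile normalization called 5 members higher and 23 lower, and 8861 of all 15126 genes tested. Of the partners in activated BMPR_KO against activated WT, where 2 were called higher and 0 lower, median-of-ratios scaling and quantile normalization each called 1 higher, only the 6 libraries compared called 0, and array quality weights called 12 higher and 9 lower. Leaving out 1 library gave 0 to 2 partners higher, with 0 without activated WT library 2 or BMPR_KO library 2, and 0 to 1 lower, with 1 without activated WT library 3. The count of all genes called between the activated groups was 626, against 92 when the fit held just the 6 libraries compared, 306 with median-of-ratios scaling, 324 with quantile normalization, 416 with no filter and 3851 with array quality weights. Leaving out naive library 1, 2 or 3 gave 143, 407 and 582, activated WT library 1, 2 or 3 gave 283, 64 and 239, and BMPR_KO library 1, 2 or 3 gave 1037, 93 and 69. The cause of these shifts was not tested.

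The labels do not say whether the replicate numbers pair the libraries, and the main fit held no replicate block. Same-numbered deviations from the group means correlated at 0.0027 to 0.054. Of 18 best matches, each sought among the 3 libraries of another group, 12 had the same number. Whether same-numbered libraries share an effect was not tested. With the replicate block, 9 members were called higher and 10 lower in activated WT against naive WT, and 7447 of all 15126 genes tested. In activated BMPR_KO against activated WT it called 0 members and 0 partners, and 58 of all genes against 626 without it. The block ended the calls of Csk (-0.229, adjusted p = 0.0528) and Lcp2 (-0.193, 0.0588) in the first comparison and of Bcl10 (0.26, 0.0668) in activated BMPR_KO against naive WT.

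Members that were not called changed sign under some alternatives. In activated WT against naive WT, quantile normalization gave log2 differences of -0.1383 (Cd3e), -0.1129 (Cd247), -0.1288 (Cd5), -0.1095 (Grb2), -0.0743 (Prkcq) and -0.0118 (Bcl10). Array quality weights gave -0.0498 (Cd3e), -0.0243 (Cd247), -0.1852 (Cd5) and -0.0296 (Prkcq), and median-of-ratios scaling gave 0.0232 (Cd6). In activated BMPR_KO against activated WT, median-of-ratios scaling gave -0.0029 (Lck), -0.0497 (Lat), -0.0218 (Pag1), -0.0184 (Sos1) and -0.0380 (Was), quantile normalization gave -0.0382 (Pag1), -0.0221 (Sos1) and -0.0462 (Was), and array quality weights gave -0.0132 (Pag1). In activated BMPR_KO against naive WT, the sign changed with quantile normalization for Ptprc (-0.0320) and Grb2 (-0.0520), and with array quality weights for Ptprc (-0.0331). Leaving out 1 library gave, for activated WT against naive WT, -0.0088 to 0.0648 for Cd3e, -0.1431 to 0.0917 for Cd5, -0.1455 to 0.0812 for Cd6, -0.0338 to 0.0671 for Grb2 and -0.0268 to 0.0552 for Bcl10. For activated BMPR_KO against activated WT it gave -0.1020 to 0.0023 for Zap70, -0.0066 to 0.0936 for Lat, -0.0753 to 0.0274 for Vav1, -0.0687 to 0.0370 for Csk, -0.0157 to 0.1653 for Pag1, -0.0054 to 0.0767 for Sos1, -0.2283 to 0.0385 for Themis and -0.0006 to 0.0846 for Was, and for activated BMPR_KO against naive WT -0.0447 to 0.0162 for Was. The number of reads behind each FPKM value is unknown, which limits what can be said of the weakest members.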
